A study of Rattus norvegicus with 18 samples.

Results

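The genes described here make proteins of the mineralized bone matrix or act in its mineralization. They are Bglap (osteocalcin), Ibsp (bone sialoprotein), Spp1 (osteopontin), Sparc (osteonectin), Alpl (tissue-nonspecific alkaline phosphatase) and Omd (osteomodulin). They were chosen by name, with earlier results of these data known. All 10 probe sets annotated to these 6 genes alone were followed, out of 8799 probe sets and 4736 singly named genes on the array. Sparc had 4 probe sets, Alpl 2, and each other gene 1. All 10 passed the filter on low signals, as did 4669 probe sets in all, and no signal of the 10 lay under the floor of 100 that was set before log2.

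Total RNA came from the middle of the left femur of intact female Sprague-Dawley rats, with fracture made at an age of 6 weeks in the young, 26 weeks in the adult and 52 weeks in the older animals. A steel rod was placed in the marrow canal before a closed transverse fracture was made, and the segment was taken at 3 days, 1, 2, 4 or 6 weeks. The no fracture arrays are shams taken at the start, picked at random. Callus, cortex and marrow were extracted together. Each of the 18 arrays stood for 1 age and time and carried RNA of a pair of rats, so the 3 ages were the replicates of a time (n = 3 arrays) and the 5 times after fracture the replicates of an age (n = 5 arrays). In such bulk samples fewer cells of a type and less RNA per cell cannot be told apart.

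Osteoblasts first lay down collagen and then mineralize it, and these 6 genes act at different steps of that work. Alkaline phosphatase removes pyrophosphate, which blocks crystal growth. Bone sialoprotein and osteopontin are acidic, integrin-binding proteins of the SIBLING family, and osteocalcin is a late product of the mature osteoblast that binds mineral through its carboxylated residues. In the rat annotation Spp1 and Ibsp lie on chromosome 14 in the order Pkd2, Spp1, Mepe, Ibsp, Dmp1 and Dspp, with 1 gene (Mepe) between them. Bglap lies on chromosome 2, Alpl on chromosome 5, Sparc on chromosome 10 and Omd on chromosome 17.

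The proximal promoters of Bglap, Ibsp and Spp1 are shown because the Bglap signal followed another time course than the signals of the SIBLING pair. They are RefSeq sequences of GRCr8, 250 bases before to 50 bases after the annotated start, 5′ to 3′ on the gene's strand, with matches to the searched motifs in capitals. The start that the sequence table uses for Spp1 lies 891 bases inside the outer end of the annotated gene, and those of Bglap and Ibsp are at that end.
Bglap, chr2:176137269-176137568, minus strand: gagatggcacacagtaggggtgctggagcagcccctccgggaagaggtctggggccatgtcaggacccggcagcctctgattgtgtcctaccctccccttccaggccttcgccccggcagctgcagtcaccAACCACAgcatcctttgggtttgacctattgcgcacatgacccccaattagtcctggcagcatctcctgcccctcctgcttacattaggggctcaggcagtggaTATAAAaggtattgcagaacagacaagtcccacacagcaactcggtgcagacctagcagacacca
Ibsp, chr14:5757193-5757492, minus strand: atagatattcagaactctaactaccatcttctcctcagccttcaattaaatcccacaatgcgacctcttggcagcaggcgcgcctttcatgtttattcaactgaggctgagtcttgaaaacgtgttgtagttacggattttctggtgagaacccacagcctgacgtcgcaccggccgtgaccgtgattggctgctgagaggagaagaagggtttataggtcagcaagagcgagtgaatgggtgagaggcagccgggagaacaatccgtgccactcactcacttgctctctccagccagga
Spp1, chr14:5619755-5620054, minus strand: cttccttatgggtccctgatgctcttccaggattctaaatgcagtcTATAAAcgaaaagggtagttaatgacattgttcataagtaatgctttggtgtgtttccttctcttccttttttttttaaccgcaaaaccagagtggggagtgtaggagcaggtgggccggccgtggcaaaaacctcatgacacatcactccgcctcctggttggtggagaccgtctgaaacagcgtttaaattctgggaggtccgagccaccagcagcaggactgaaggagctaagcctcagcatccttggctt
The Bglap window held the Runx motif AACCACA at positions -119 to -113 from the start and TATAAA at -15 to -10. The Spp1 window held TATAAA at -204 to -199, and the Ibsp window held no match on the strands searched. The Ibsp window does hold tttata, the reverse complement of TATAAA, which the forward-strand search left out. AACCACA, searched on both strands, occurs in 5.57% of 33469 rat promoters of the same length, the AP-1 motif TGANTCA (its own reverse complement) in 7.33%, and TATAAA, searched on the forward strand, in 8.8%. None of these matches overlapped another. A match is a run of letters, not a measured site.

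Signals are intensities in arbitrary units, scaled by the authors to the same average on every array. Array medians ran between 137.2 and 182.6. RNA integrity, read as the Gapdh 5′ signal over its 3′ signal, was lowest for young rats at 6 weeks, 0.257, and 0.65 to 0.913 elsewhere. Results at 6 weeks against no fracture are therefore also given without that array. The sizes of the age differences at 4 and 6 weeks are not given without that array. The same ratio for actin ran from 0.372 to 0.842 and was 0.446 on that array. The lowest actin ratio was that of adult rats at 1 week, the array with the Gapdh ratio of 0.65. The numbers of measured marker genes, of those listed, were 7 of 11 for chondrocytes, 4 of 8 for osteoclasts, 5 of 11 for macrophages, 6 of 11 for neutrophils, 5 of 11 for red cells and 13 of 15 for skeletal muscle. The summed red cell signal was 7929 to 18281 at 3 days and 75002 to 108402 without fracture, and the summed muscle signal was 55475 to 84597.0 at 3 days and 122478 to 269945 without fracture. Neutrophil sums were 1375 to 15164 at 3 days and 44475.0 to 86996 without fracture, and macrophage sums were 5496 to 7466 at 3 days and 2453 to 3682 without fracture. Red cell, neutrophil and muscle sums were thus lower at 3 days than on any unfractured array. Osteoclast sums were 29878 to 37223 at 2 weeks and 1197 to 4497 without fracture, and chondrocyte sums were 16637 to 23001 at 2 weeks and 371.5 to 1395 without fracture.

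Bone sialoprotein and osteopontin were the most strongly up-regulated of the 6 genes by their brightest probe sets, while osteocalcin was down-regulated at 3 days. A dimmer Sparc probe set, rc_AA891204_s_at, rose more than Spp1 at 3 days (8.88- against 6.99-fold) and 2 weeks (8.85- against 8.62-fold). At the other times it rose less than Spp1. Of the 10 probe sets, 7 were up-regulated at 3 days, 1, 2 and 4 weeks and 5 at 6 weeks against no fracture. The matching shares of all tested probe sets were 24.5%, 14.3%, 12.8%, 5.05% and 3.19%. Down-regulated were 2 of the 10 at 3 days, against 19.7% of all tested, and 1 at each later time, against 10.5%, 8.27%, 1.43% and 1.2%. Sparc and Alpl count more than once here. By the brightest probe set of each gene, 4 of the 6 genes were up-regulated at every time. By the same measure 1 was down-regulated at 3 days and 0 later. The median log2 fold changes of the 10 were 1.67, 1.57, 1.69, 1.27 and 1.14 over these times, and those of all tested probe sets lay between 0.00 and 0.05. Without the young 6 weeks array all 10 passed the test at 6 weeks.

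**Figure D1:**
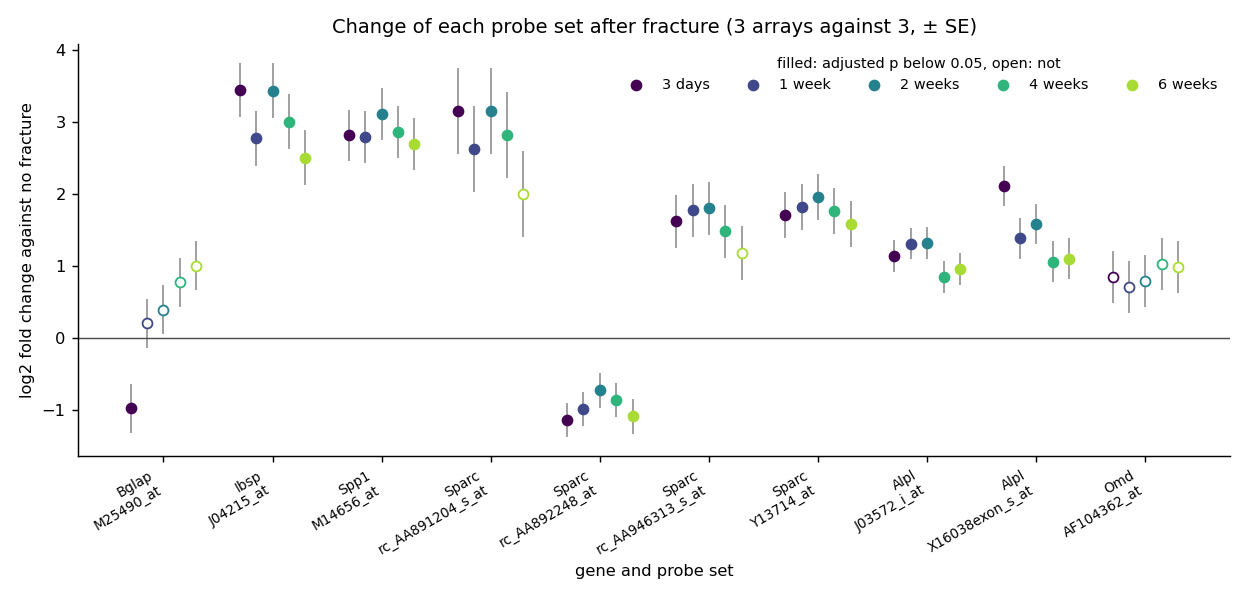
Log2 fold change of each of the 10 probe sets at the 5 healing times over no fracture (y axis, points ± SE, 3 arrays against 3), with colours for the times and filled points for an adjusted p below 0.05. Ibsp and Spp1 lie between 2.50 and 3.44 at every time, Bglap is at -0.98 at 3 days and 1.00 at 6 weeks, and Sparc rc_AA892248_at is below 0 throughout.

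Osteocalcin mRNA was down-regulated at 3 days and had its highest signals between 2 and 6 weeks. Bglap (M25490_at) had signals in young rats of 14069 without fracture and 7422, 17920.0, 19608.5, 16938 and 16026 at 3 days, 1, 2, 4 and 6 weeks. The adult rats had 11082, 5207, 11489, 9879, 12913 and 20276.5 at the same times. Older rats had 4122, 2159, 4777, 7504.5, 14677 and 15834. At every age the 3 days array was the lowest of the 6, with a signal 0.528, 0.47 and 0.524 times the unfractured signal of that age for young, adult and older rats. The highest array was that of 2 weeks in young rats and that of 6 weeks in adult and older rats.

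**Figure D2:**
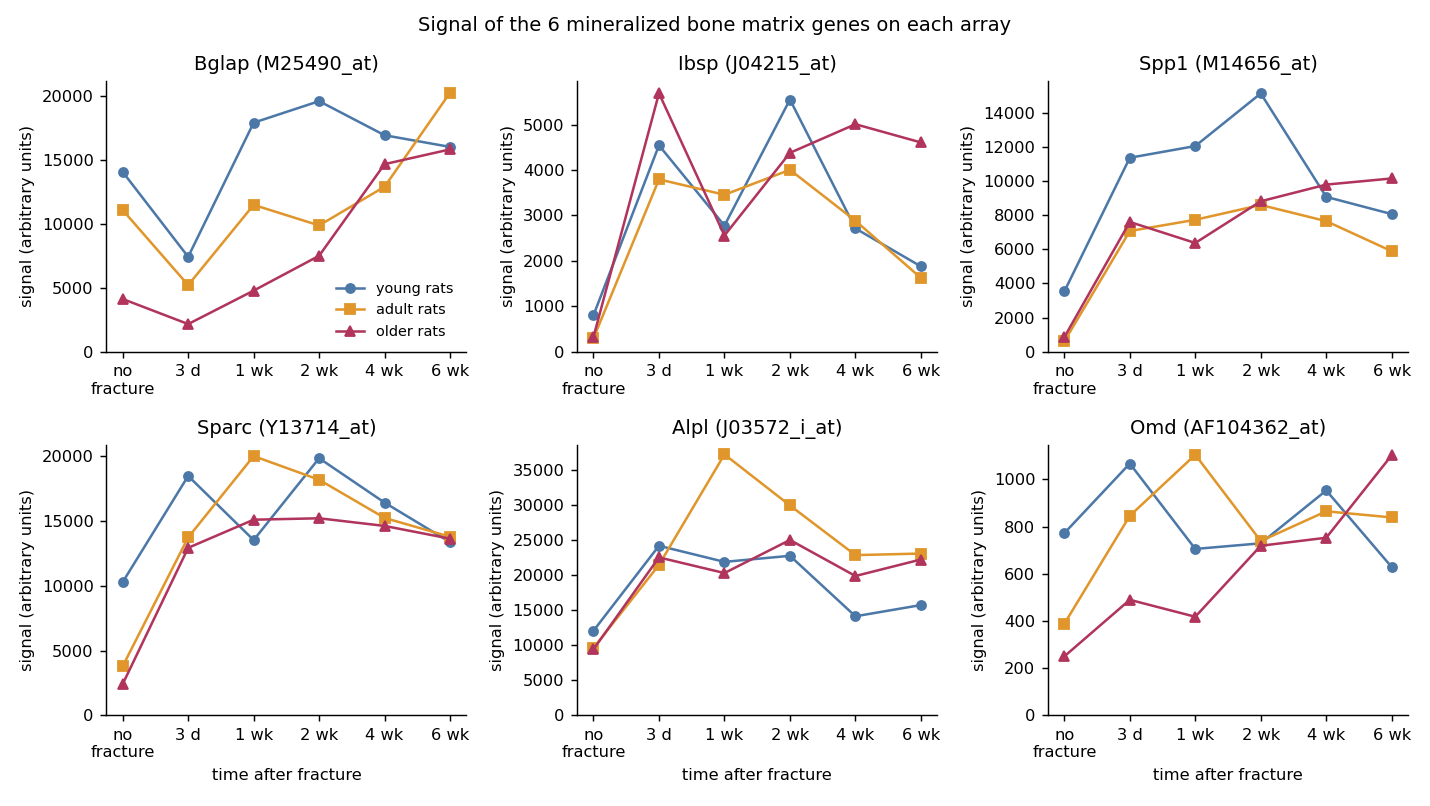
Signal (y axis, arbitrary units) of the brightest probe set of each of the 6 genes on the 18 arrays against time after fracture (x axis, not to scale), with 1 line for each age. The Bglap lines dip at 3 days, and at 6 weeks the young and older arrays read 16026 and 15834 and the adult array 20276.5. Ibsp, Spp1, Sparc and Alpl are lowest without fracture at every age.

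Bglap averaged 4929 ± 2642.5 at 3 days and 9758 ± 5104 without fracture (SD, n = 3 arrays each), 1.98-fold lower (log2 -0.98 ± 0.34, adjusted p = 0.027). The raw ranges overlapped, and the age term of the fit was needed for this call, since the adjusted p was 0.151 without it. It was also lost without the young array of no fracture (adjusted p = 0.0809), the adult array of no fracture (0.107) or the older 3 days array (0.119), and with no filter on low signals (0.0939) or quantile normalization (0.0626). The lower Bglap signal at 3 days went with lower red cell, muscle and neutrophil sums, given above, of which 5 of 5, 12 of 13 and 6 of 6 tested genes were called lower, and with higher macrophage sums (2 of 4 called higher), and their part in it was not tested. At 1, 2, 4 and 6 weeks Bglap did not pass the test, with log2 0.20 ± 0.34, 0.39 ± 0.34, 0.77 ± 0.34 and 1.00 ± 0.34 (adjusted p = 0.7, 0.446, 0.201 and 0.107). Its 3 arrays of 6 weeks, at 17379 ± 2511, all lay above the 3 arrays without fracture, as did those of 9.55% of all tested probe sets. Without the young 6 weeks array the 6 weeks difference was log2 1.38 with adjusted p = 0.0292.

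Bone sialoprotein, which can seed mineral crystals, had low signals without fracture and had increased severalfold by 3 days. In young rats Ibsp (J04215_at) read 803 without fracture and 4544, 2775.5, 5552, 2713.5 and 1877 at 3 days, 1, 2, 4 and 6 weeks. In adult rats the values at these times were 295, 3793.5, 3455, 4004, 2882 and 1623. In older rats they were 326, 5689, 2557, 4378, 5008 and 4607. All 15 arrays after fracture were above all 3 without fracture, as for 5 of the 10 probe sets (Ibsp, Spp1, Sparc Y13714_at and both of Alpl) and 4.16% of all tested. The young and adult arrays were lower at 6 weeks than at 2 weeks, while the older arrays of 4 and 6 weeks were above that of 2 weeks. The fold changes against no fracture were 10.8, 6.82, 10.8, 7.97 and 5.66 over the 5 times, each with an SE of 0.38 on the log2 scale. The means were 4675.5 ± 955 at 3 days and 475 ± 284 without fracture (SD, n = 3 arrays each, adjusted p = 1.6e-05). Between 6 weeks, the lowest time after fracture at 2702 ± 1654, and no fracture the ranges did not overlap (adjusted p = 0.00205), whereas neighbouring times after fracture, ordered by mean, all overlapped.

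Osteopontin, which restrains crystal growth and anchors osteoclasts and other cells through integrins and Cd44, followed a like course. Spp1 (M14656_at) in young rats had 3526 without fracture and 11364, 12049.7, 15134, 9071 and 8062.5 at 3 days, 1, 2, 4 and 6 weeks. Adult rats gave 599, 7069.9, 7728, 8597, 7649 and 5887. The older rats gave 847, 7601, 6369, 8813, 9790.4 and 10150.5. Again all 15 arrays after fracture lay above the 3 without fracture, and the young array without fracture stood above those of the other ages. Up-regulation was 6.99-, 6.92-, 8.62-, 7.24- and 6.46-fold over the 5 times (SE 0.36 on the log2 scale, adjusted p between 4.1e-05 at 3 days and 0.000977 at 6 weeks). The mean was highest at 2 weeks, 10848 ± 3713, against 1657 ± 1623 without fracture (SD, n = 3 arrays each). At 2 weeks the rises of Ibsp and Spp1 went with higher osteoclast, chondrocyte and macrophage sums (3 of 3, 5 of 5 and 1 of 4 tested genes called higher). At 3 days, when both genes were already up-regulated, 1 of 3, 2 of 5 and 2 of 4 were called higher. Osteoclast sums were then 2210 to 12225, overlapping the 1197 to 4497 without fracture. The part of these cells was not tested. Ibsp and Spp1 kept their calls at all 5 times with each of the 18 arrays left out in turn. In limma fits of only the arrays compared, both lost the calls of 4 weeks (adjusted p = 0.129 and 0.13) and 6 weeks (0.452 each). These calls were also lost without the adult rats (0.112 and 0.113 at 4 weeks, 0.103 and 0.0993 at 6 weeks). Those of 6 weeks were lost without the older rats too (0.0804 each). Over the 18 arrays the log2 signals of Ibsp and Spp1 had a Pearson correlation of 0.93, and of 0.54 over the 15 arrays after fracture. Bglap and Ibsp had 0.01 and -0.38. These correlations describe arrays that share times, ages and the mixture of cells in the segment.

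Osteonectin, a collagen- and calcium-binding protein of newly formed matrix, was up-regulated by 3 of its 4 probe sets. The brightest, Y13714_at, read 10281 without fracture and 18476, 13526, 19846, 16417 and 13366 at 3 days, 1, 2, 4 and 6 weeks in young rats. Adult rats had 3788.5, 13733, 20011, 18184, 15236 and 13780.0. Older rats had 2408, 12927, 15099, 15208.5, 14619 and 13632 at these times. All 15 arrays after fracture were above the 3 without fracture, and the 3 arrays of 6 weeks lay within a narrow span, 13593 ± 209.8 (SD, n = 3), against 5492.5 ± 4204 without fracture. The fold changes were 3.27, 3.52, 3.88, 3.39 and 2.99 (adjusted p = 0.000606, 0.000705, 0.000726, 0.00445 and 0.0146). The 6 weeks call was lost without the adult array of no fracture (adjusted p = 0.0522) or the older 6 weeks array (0.0986).

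The other Sparc probe sets differed in size and, for 1 of them, in direction. With rc_AA891204_s_at the young rats had 3849 without fracture and 10943, 4442, 12768.5, 9123 and 2344 at 3 days, 1, 2, 4 and 6 weeks. This probe set read 711, 8697, 6652.5, 6915, 4970.1 and 3699 in adult rats. It read 375, 7545, 8093, 8037, 8001 and 7561 in older rats, where the 5 arrays after fracture averaged 7848 ± 270.9 (SD, n = 5 times), the flattest course of the 3 ages. The young arrays went up and down from time to time, and that of 6 weeks was below that without fracture. Its fold changes were 8.88, 6.16, 8.85 and 7.07 through 4 weeks (adjusted p = 0.000725, 0.00464, 0.00179 and 0.00972), and 6 weeks did not pass the test (log2 2.00 ± 0.60, adjusted p = 0.0725). Without the young 6 weeks array the 6 weeks difference was log2 2.65 with adjusted p = 0.0244, and without the young array of no fracture 2.98 with adjusted p = 0.00131. The 4 weeks call was lost without the older array of 4 weeks (adjusted p = 0.066) or of no fracture (0.0511). The probe set rc_AA946313_s_at moved alike, with log2 1.62 ± 0.37, adjusted p = 0.00272 at 3 days, log2 1.80 ± 0.37, adjusted p = 0.00307 at 2 weeks and log2 1.18 ± 0.37, adjusted p = 0.0888 at 6 weeks. Its 6 weeks difference passed without the young array of 6 weeks (1.56, adjusted p = 0.0316) or of no fracture (1.79, adjusted p = 0.00149), and its 4 weeks call was lost without the adult or older arrays of 4 weeks or no fracture or the young array of 4 weeks (adjusted p = 0.057 to 0.145). The ending _s_at marks probe sets whose probes can match more than 1 transcript.

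**Figure D3:**
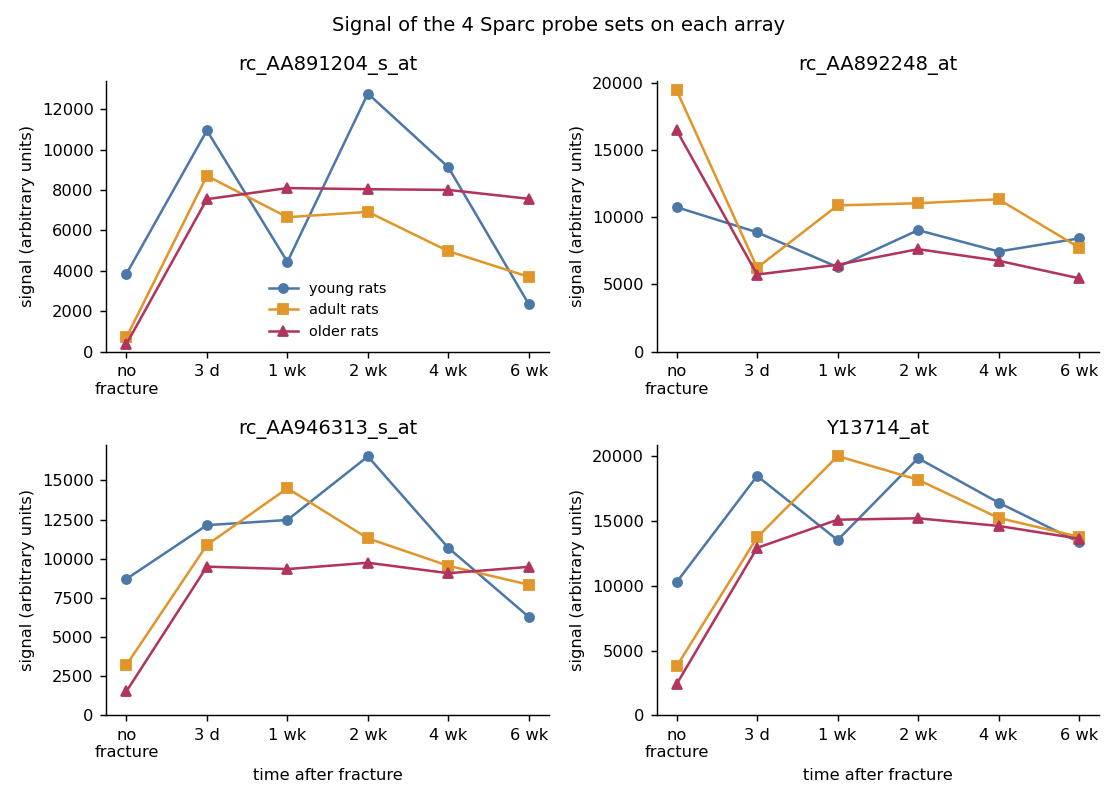
Signal (y axis, arbitrary units) of the 4 Sparc probe sets on the 18 arrays against time after fracture (x axis, not to scale), with 1 line for each age. With 3 probe sets the adult and older arrays without fracture are the lowest of their age, and each age's array without fracture is its highest with rc_AA892248_at.

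The probe set rc_AA892248_at carried the same gene symbol and went the opposite way. It read 10746 without fracture and 8879.7, 6287, 9039, 7450.0 and 8423.5 at 3 days, 1, 2, 4 and 6 weeks in young rats. It read 19432, 6241, 10880.0, 11040.1, 11336 and 7745 in adult rats. In older rats it read 16459.7, 5738, 6465, 7622.5, 6762 and 5458. At every age the array without fracture was the highest, and all 15 arrays after fracture were below the array of their own age, a pattern found in 4.52% of all tested probe sets. It was 2.21-fold lower at 3 days (log2 -1.14 ± 0.24, adjusted p = 0.0016), with 6953 ± 1687 at 3 days and 15546 ± 4415 without fracture (SD, n = 3 arrays each). At 1, 2, 4 and 6 weeks the log2 differences were -0.99, -0.73, -0.86 and -1.09 (SE 0.24 each, adjusted p = 0.00743, 0.0442, 0.0453 and 0.0207). The calls of 2 and 4 weeks were each lost without any 1 of 11 arrays, namely those of no fracture, 2, 4 and 6 weeks in adult rats, of no fracture, 3 days, 1, 2 and 4 weeks in older rats and of 2 and 4 weeks in young rats (adjusted p = 0.0505 to 0.191 at 2 weeks and 0.0529 to 0.18 at 4 weeks), and with quantile normalization (0.0681 and 0.108). The 6 weeks call was lost without the adult or older arrays of 6 weeks or no fracture (0.0713 to 0.135). The correlation of rc_AA892248_at with Y13714_at was -0.63 over the 18 arrays and 0.71 over the 15 after fracture. Which transcript its probes detect was not tested, so the direction of Sparc is given for each probe set.

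Alkaline phosphatase was up-regulated at every time by both of its probe sets. J03572_i_at, the brighter, had 12077 without fracture and 24203, 21906, 22772, 14137 and 15738 at 3 days, 1, 2, 4 and 6 weeks in young rats. Adult rats had 9624, 21471, 37249, 29962, 22871 and 23094. Older rats reached 9429, 22541, 20309.6, 25033, 19889 and 22244. All 15 arrays after fracture exceeded the 3 without fracture, and the adult array of 1 week was the highest of the 18. That array also had the lowest actin 5′ over 3′ ratio, 0.372. On some arrays J03572_i_at was near the highest signal of any probe set. That highest signal was 25679 for young rats at 3 days and 23811 for older rats at 1 week. Whether signals this high rise in proportion to RNA was not tested. The fold changes were 2.2, 2.47, 2.5, 1.8 and 1.95 (SE 0.22 on the log2 scale, adjusted p = 0.000726, 0.000514, 0.000759, 0.0289 and 0.0213). With X16038exon_s_at they were 4.32, 2.6, 2.99, 2.08 and 2.15 (adjusted p = 4.57e-05, 0.00178, 0.0011, 0.0329 and 0.0341), and the highest time was 3 days at all ages (3619, 5070.0 and 4610.3 in young, adult and older rats). The 3 arrays of 3 days did not overlap those of 2 weeks, the next highest time by mean, with this probe set, while all neighbouring times after fracture overlapped with J03572_i_at. The J03572_i_at call of 4 weeks was lost without the adult or older arrays of 4 weeks or no fracture (adjusted p = 0.0967 to 0.155), and that of 6 weeks without the adult or older arrays of 6 weeks or no fracture (0.064 to 0.141). The X16038exon_s_at calls were lost without the same arrays, and at 6 weeks also without the adult 4 weeks array (0.0876 to 0.192 at 4 weeks and 0.0511 to 0.138 at 6 weeks).

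Osteomodulin, a small keratan sulphate proteoglycan of mineralized tissue, was the dimmest of the 6 on these probe sets and did not pass the test at any time. Omd (AF104362_at) read 772 without fracture and 1068, 705.5, 729, 953.5 and 629 at 3 days, 1, 2, 4 and 6 weeks in young rats. It read 388, 846, 1105, 739, 865 and 839 in adult rats. It read 249.7, 489.7, 418, 719, 753 and 1103 in older rats. In adult and older rats every array after fracture was above that without fracture, while the young arrays lay on both sides of theirs. The log2 differences from no fracture were 0.85, 0.71, 0.79, 1.02 and 0.99 (SE 0.36 each, adjusted p = 0.0662, 0.169, 0.139, 0.114 and 0.135). Without the young array of no fracture all 5 passed, with log2 differences of 1.26, 1.12, 1.2, 1.43 and 1.4 (adjusted p = 0.0115, 0.0336, 0.0263, 0.0214 and 0.0307). At 3 days it also passed without the young (adjusted p = 0.0461) or the older 6 weeks array (0.0371), and at 6 weeks without the young 6 weeks array (log2 1.35, adjusted p = 0.0495).

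The later against the earlier weeks of healing were compared to see which of the 6 genes kept changing once bone was forming. None of the 10 probe sets passed the test at 4 and 6 weeks against 1 and 2 weeks (limma, 6 arrays against 6), against 12.2% of all tested, and 2 had an unadjusted p below 0.05, against 27.2%. Bglap averaged 16111 ± 2466 at 4 and 6 weeks and 11863 ± 5830.3 at 1 and 2 weeks (SD, n = 6 arrays each, log2 0.59 ± 0.24, adjusted p = 0.12). Alpl J03572_i_at averaged 19662 ± 3865.5 at 4 and 6 weeks and 26205 ± 6364 at 1 and 2 weeks (log2 -0.41 ± 0.15, adjusted p = 0.0958). The Bglap difference passed without the young 6 weeks array (log2 0.78, adjusted p = 0.0472), and the Alpl difference passed with quantile normalization (-0.43, adjusted p = 0.0492) or equal array medians (-0.47, adjusted p = 0.0471). The remaining 8 lay between -0.47 (Sparc rc_AA891204_s_at) and 0.25 (Omd).

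Age was compared because healing of this fracture slows with age in rats. Without fracture the young array was the highest of the 3 ages for 9 of the 10 probe sets, all but Sparc rc_AA892248_at, a pattern found in 21.8% of all tested. For Bglap the young array read 14069, the adult 11082 and the older 4122. For Spp1 the young array read 3526, the adult 599 and the older 847. For Sparc Y13714_at they were 10281, 3788.5 and 2408 in young, adult and older rats. These are single arrays of pooled RNA, and the differences between ages without fracture have no replicate.

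After fracture the largest difference between older and young rats among the 10 probe sets was that of osteocalcin. Bglap was lower in older than in young rats at all 5 times after fracture, the only one of the 10 probe sets with that pattern, which 6.51% of all tested showed. The older signal was 0.293 times the young signal without fracture, and 0.291, 0.267, 0.383, 0.867 and 0.988 times at 3 days, 1, 2, 4 and 6 weeks. Averaged over the times after fracture it was 8990.3 ± 6038 in older rats and 15583 ± 4751 in young rats (SD, n = 5 arrays each, log2 -1.06 ± 0.25, adjusted p = 0.0602), which did not pass the test. None of the 10 passed in older against young rats by limma, against 0.15% of all tested, and 1 had an unadjusted p below 0.05, against 20.8%. In adult against young rats none passed by limma, against 0.0% of all tested, and 3 had an unadjusted p below 0.05, against 13.2%. Without the older 3 days array the Bglap difference was log2 -0.89 with adjusted p = 0.0439, where 457 probe sets in all were called in place of 7, and with equal array medians it was -1.19 with adjusted p = 0.0464. In adult against young rats Spp1 was lower at 5 of 5 times (log2 -0.57 ± 0.17, adjusted p = 0.212), and Alpl J03572_i_at was higher at 4 of 5 (log2 0.45 ± 0.15, adjusted p = 0.238). Neither passed the test.

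**Figure D4:**
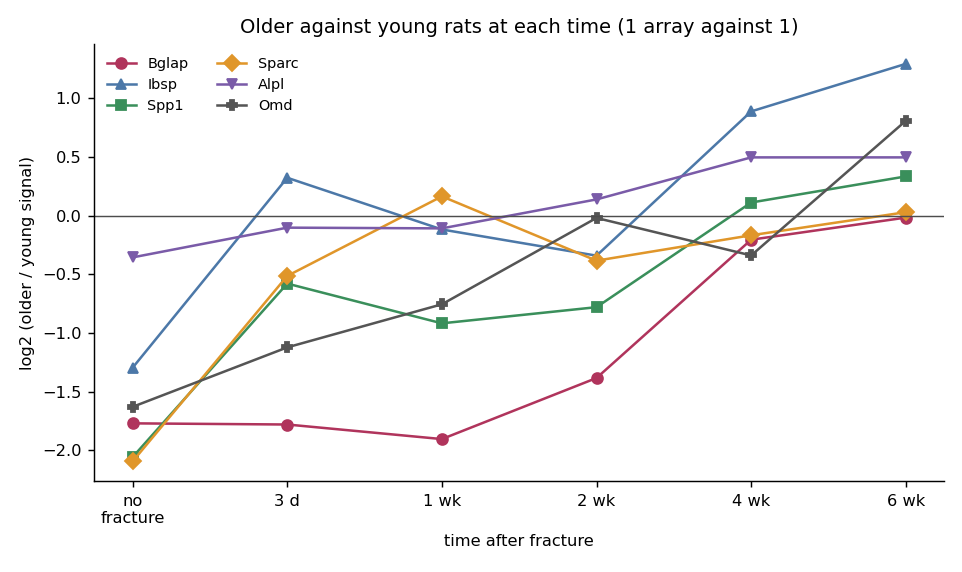
Log2 ratio of the older to the young signal (y axis) at each time (x axis, not to scale) for the brightest probe set of each of the 6 genes, 1 array against 1 at each point, with the line at 0 for equal signals. The older Bglap signal is at most 0.383 times the young signal through 2 weeks and 0.988 times at 6 weeks, and the older Ibsp signal is 1.85 and 2.45 times the young at 4 and 6 weeks.

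Within 1 and 2 weeks Bglap was lower in older than in young rats, at 4777 and 7504.5 against 17920.0 and 19608.5. The older over young ratios were 0.267 and 0.383, and 0.293 without fracture, each from 1 array against 1. In older rats these signals were 1.16 and 1.82 times the unfractured signal. Both older arrays lay below the young ones, as in 936 of the 4669 tested probe sets, and the difference was 3.13-fold (log2 -1.65 ± 0.26, adjusted p = 0.035). It was the only one of the 10 probe sets called, against 0.15% called lower among all tested. The call rested on 4 residual degrees of freedom and was lost with a floor of 200 (adjusted p = 0.101), with no filter (0.243) and without any 1 of 9 arrays, those of 1, 4 and 6 weeks in young rats, 4 and 6 weeks in adult rats and 1, 2, 4 and 6 weeks in older rats (0.06 to 0.552). Muscle sums at 1 and 2 weeks were 87797 and 121471 in older rats and 201508 and 186953.0 in young rats, and red cell sums 5961 and 10841 in older rats and 20493 and 54146.5 in young rats (1 of 13 and 1 of 5 tested genes called lower). Their part in the Bglap difference was not tested. Spp1 also had older arrays below the young ones, 6369 and 8813 in older rats and 12049.7 and 15134 in young rats, without passing the test (log2 -0.85 ± 0.20, adjusted p = 0.092). The summed osteoclast signal on the older 1 week array was 9478 and on the young 27843, and at 2 weeks 36011 and 37223. The part of osteoclasts in the Spp1 difference was not tested.

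Within 4 and 6 weeks none of the 10 passed in older against young rats by limma, against 2.81% of all tested, and 2 had an unadjusted p below 0.05, against 22.1%. Ibsp had 5008 and 4607 in older rats and 2713.5 and 1877 in young rats. The older arrays were both above the young ones, as in 28.5% of all tested, a 2.13-fold difference just outside the threshold (log2 1.09 ± 0.25, adjusted p = 0.0504). It passed with a filter at 500 (adjusted p = 0.0424), with quantile normalization (0.0277), and without the young 1 week (0.0266) or 2 weeks array (0.027). Alpl J03572_i_at had 19889 and 22244 in older rats and 14137 and 15738 in young rats, a log2 difference of 0.50 ± 0.20, adjusted p = 0.194, which passed with quantile normalization (0.86, adjusted p = 0.0234). The young 6 weeks array, with its low Gapdh ratio, is 1 of the 2 young arrays here. Without it neither Ibsp nor Alpl J03572_i_at passed, and the sizes of the differences are not given without it. Bglap had 14677 and 15834 in older rats and 16938 and 16026 in young rats (log2 -0.11 ± 0.26, adjusted p = 0.844), so that the older arrays were just below the young ones. The summed chondrocyte signal at 4 and 6 weeks was 11282 and 8000.4 in older rats and 1366 and 638.8 in young rats. Osteoclast sums were 29931 and 26635 in older rats and 21112 and 14027 in young rats. Neutrophil sums were 6601 and 12503 in older rats and 30762 and 61393 in young rats. Muscle sums were 104623 and 126456.5 in older rats and 195532 and 223238.5 in young rats. The part of these cells in the Ibsp difference was not tested.

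The older over young ratio was higher at 4 and 6 weeks than at 1 and 2 weeks for 9 of the 10 probe sets, against 54.1% of all tested. The young 6 weeks array, with its low Gapdh ratio, enters each of these ratios, and they are not given without it. The difference between the periods was log2 1.53 ± 0.36 for Bglap, 1.32 ± 0.36 for Ibsp and 1.07 ± 0.28 for Spp1. These 3 had an unadjusted p below 0.05, against 7.22% of all tested, and none of the 10 passed after adjustment by limma (adjusted p = 0.232, 0.326 and 0.285), against 0.0% of all tested.

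With 3 of its 4 probe sets Sparc was lower in the older than in the young array without fracture, by more than after fracture. With Y13714_at the older signal was 0.234 times the young one without fracture, and after fracture the older minus young difference was log2 -0.18 ± 0.14. The same values were 0.0973 times and log2 0.23 ± 0.28 with rc_AA891204_s_at, and 0.176 times and log2 -0.24 ± 0.17 with rc_AA946313_s_at. In older rats Sparc Y13714_at after fracture was 5.37 to 6.32 times its unfractured level, in adult rats 3.62 to 5.28 times and in young rats 1.3 to 1.93 times. The adult signal without fracture was 0.368 times the young one, so the young array stood above both other ages there. The change in the older minus young difference from no fracture to after fracture was put into a fit after the data were seen. Its arm without fracture is 1 older and 1 young array, which the fit assumes to vary like the arrays after fracture, so that an effect of age and the variation of 1 pooled array cannot be told apart. Under that assumption 3 of the 10 probe sets had an adjusted p below 0.05, all of Sparc, against 1.58% of all tested called higher, and so did 8 of 17 tested genes of bone collagen and the osteoblast. The older minus young difference was less negative, or turned positive, after fracture by log2 1.92 ± 0.34, adjusted p = 0.00958 with Y13714_at, by 3.59 ± 0.69, adjusted p = 0.0165 with rc_AA891204_s_at and by 2.27 ± 0.41, adjusted p = 0.0123 with rc_AA946313_s_at. The rc_AA891204_s_at call was lost with no filter on low signals (adjusted p = 0.0554). The remaining Sparc probe set, rc_AA892248_at, had -0.94 ± 0.40, adjusted p = 0.261. Spp1 had 1.69 ± 0.43, adjusted p = 0.0531, and passed without the older 3 days or 1 week array or the young 1 week or 2 weeks array (adjusted p = 0.0326 to 0.0487). Bglap had 0.71 ± 0.62, adjusted p = 0.618. The older and the young array without fracture could not themselves be left out.

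Other genes of mineralization and of the osteoblast were counted by lists. Of 6 tested genes that regulate mineralization, 4, 3, 3, 1 and 0 were up-regulated at 3 days, 1, 2, 4 and 6 weeks and none down-regulated. The shares of all tested probe sets up-regulated at these times were 24.5%, 14.3%, 12.8%, 5.05% and 3.19%, which hold for each list. Mgp, matrix Gla protein, an inhibitor of calcification, had log2 1.06 ± 0.32 at 3 days and 1.45 ± 0.32 at 2 weeks (adjusted p = 0.0146 and 0.00461). Of 17 tested genes of bone collagen, small proteoglycans and the osteoblast, 13, 14, 15, 9 and 5 were up-regulated, and 1 was down-regulated, Msx2 at 3 days. Of 4 tested receptors and processing enzymes of the 6 proteins, 3, 2, 3, 1 and 0 were up-regulated. Ggcx, the carboxylase that modifies osteocalcin and Mgp, had log2 2.14 ± 0.28 at 3 days (adjusted p = 4.57e-05), the time at which Bglap was lowest. Itgb1, an integrin subunit, had 1.1 ± 0.22, and Cd44, a receptor of osteopontin, 0.71 ± 0.23 (adjusted p = 0.000942 and 0.0219).

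The genes most like each member over the 18 arrays were named by the highest Pearson correlation of log2 signals. For Ibsp they were Sdc1 (0.955), Myo1e (0.954) and Id3 (0.943), and for Spp1 Sdc1 (0.949), Sparc (0.935) and Cpz (0.932). For Sparc Y13714_at they were the collagen genes Col5a2 (0.948), Col1a2 (0.946) and Col3a1 (0.937). Alpl was nearest to Timp2 (0.914), Foxs1 (0.91) and Bgn (0.905), and Omd to Col1a1 (0.804), Col1a2 (0.799) and Sparc (0.788). Bglap shared none of these, with Cst3 (0.825), Cacna1g (0.803) and Pvalb (0.803) nearest. Spearman correlations of the same pairs were lower for all but Bglap with Cacna1g (0.814). In the order named they were 0.6, 0.715 and 0.622 for Sparc and 0.432, 0.492 and 0.581 for Omd. Spp1 with Sparc had a Spearman correlation of 0.56, and a Pearson correlation of 0.39 over the 15 arrays after fracture. These are descriptions over 18 arrays that share times, ages and cell mixtures.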

How the data were processed

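Affymetrix rat genome arrays (U34 set, chip A) were hybridized with RNA pooled from 2 rats each, and the first of the study's series of arrays, 18 in all, was analysed here, with the other series of independent samples not used here. The deposited unit is intensity, computed by the authors in Microarray Suite 5.0 with an average of 500 set as the target of every array. Build and annotation of the design were not given in the sources used here. Symbols came from the platform annotation, updated through gene identifiers, so that 7006 of the probe sets other than controls had 1 symbol, 308 had more and 1426 had none. All 18 columns were mapped to samples, leaving 0 unused. Scaling each array to 1 average makes every signal relative to the rest of the RNA on the array.

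Signals under 100 were set to 100 before log2. Probe sets that reached 200 on 3 or more arrays were tested, controls left out, with limma 3.58.1 (R 4.3.3, functions lmFit and eBayes, intensity trend, two-sided), and Benjamini-Hochberg adjustment over 4669 probe sets and a threshold of 0.05. Times were fitted on 18 arrays with time and age as terms, ages on the 15 arrays after fracture with age and time, and the periods of 1 and 2 and of 4 and 6 weeks on 12 arrays with 4 residual degrees of freedom. The spread behind the p-values is thus that among ages or times, not among rats of 1 age and time, and the number of arrays limits the precision. SD is over signals and SE over log2 values, so the ratio of mean signals can differ from the fold change.

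All probe sets annotated to Bglap, Ibsp, Spp1, Sparc, Alpl or Omd alone were described, and the brightest stood for a gene where 1 value was given. The 3 probe sets most alike were named by Pearson correlation, and up to 4 called members of a list could be named. Members and lists were chosen with earlier results of these data known. Counts of array patterns and the departure of the age difference from that without fracture were chosen after seeing the data. Tried in place of these were a floor of 20 or 200, testing every probe set or those above 500, normalization by quantiles or to equal medians, robust eBayes, fits that dropped the age or time term or used only the arrays compared, fits of the ages with all 18 arrays, leaving out each age or each array, and the methods' t-test. Promoters and gene order are from RefSeq on GRCr8, and all 6 genes matched. Steps were tested on simulated data. Python 3.11.15 and matplotlib 3.10.9 drew the plots.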

Additional observations from a re-analysis of the deposited data

Results flagged for a closer look

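In young rats the Bglap signal of the 3 days array, 7422, stood apart from the other 4 arrays after fracture, which read 16026 to 19608. The gap was 0.792 of the range, above the critical value of 0.71 for 5 samples. It was 1 of 30 groups examined, and chance alone marks about 1 in 20. The 5 arrays of an age are different times, not repeats.

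For 3 Sparc probe sets the older minus young difference of the fractured femurs exceeded that of the unfractured in a fit of the difference itself, by log2 3.59 for rc_AA891204_s_at, 2.27 for rc_AA946313_s_at and 1.92 for Y13714_at. Each rests on the single unfractured array of each age, assumed to vary like the others, so an age effect and the variation of 1 array cannot be told apart. In these arrays the older signals were 0.0973, 0.176 and 0.234 times the young signals, and after fracture the differences were log2 0.23, -0.24 and -0.18.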

How the results depend on the processing

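Over the alternatives and left-out arrays, 3208 of 3430 log2 differences of the 10 probe sets had the same direction and side of the threshold as reported, 186 lost the call, 36 gained one, and 0 called values changed sign. In place of the 9 probe sets called at 3 days, 3 were called by the methods' t-test. That test has no age term, and its spread comes from the arrays compared alone, for each probe set by itself. Without adjustment, 6, 5, 6, 4 and 5 of the 10 were under its threshold at 3 days, 1, 2, 4 and 6 weeks. In place of the 8 called at 1 week, the t-test called 0 and the fit without the adult rats 3, and in place of the 8 at 2 weeks, 0 and 5. At 4 weeks the 8 became 3 with no filter, 4 with no age term, 2 without the older rats, and 0 with only the arrays of both times, with the t-test or without the adult rats. At 6 weeks the 6 became 2 with no filter, 10 without the young rats, and 0 with only the arrays of both times, with the t-test, without the adult rats or without the older rats. The fits without an age or with only the arrays compared have fewer arrays, and the cause of the other losses was not tested. For 4 and 6 weeks against 1 and 2 weeks, 1 was called in place of 0 with quantile normalization (Alpl) or equal array medians (Alpl). For older against young after fracture, 1 was called in place of 0 with equal array medians (Bglap). The single call at 1 and 2 weeks became 0 with a floor of 200 or no filter, and at 4 and 6 weeks 1 was called in place of 0 with a filter at 500 (Ibsp) and 2 with quantile normalization (Ibsp and Alpl).

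With each array left out in turn, 8 to 10 were called at 3 days, 8 to 9 at 1 week, 7 to 9 at 2 weeks, 3 to 9 at 4 weeks and 2 to 10 at 6 weeks, 0 to 1 for 4 and 6 weeks against 1 and 2 weeks, 0 to 1 for older against young after fracture and at 1 and 2 weeks, and 0 to 1 at 4 and 6 weeks. For the departure from no fracture it was 3 to 4 over the 16 arrays that could be left out, the older and the young unfractured array, on which it rests, not among them. The lowest at 4 weeks was without the older array of no fracture and the lowest at 6 weeks without the adult array of no fracture.

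Counts over all tested probe sets ran, over the alternatives, from 848 to 2079 at 3 days (2062 as reported), 1 to 1179 at 1 week (1160), 18 to 1004 at 2 weeks (984), 0 to 357 at 4 weeks (303) and 0 to 322 at 6 weeks (205), with the lowest from the t-test at 3 days, 1 week and 2 weeks. They ran from 62 to 649 for 4 and 6 weeks against 1 and 2 weeks (569), 0 to 42 for older against young after fracture (7), 5 to 31 at 1 and 2 weeks (24), 16 to 161 at 4 and 6 weeks (131) and 112 to 281 for the departure (119). With 1 array left out they ran from 0 (without the young 6 weeks array) to 457 (without the older 3 days array) for older against young after fracture, 0 (older 1 week) to 151 (young 2 weeks) at 1 and 2 weeks and 1 (young 6 weeks) to 323 (young 1 week) at 4 and 6 weeks, so that the shares of all probe sets called in these comparisons rest on single arrays. No paired analysis was possible because each group has 1 array and the labels number no replicates within it. Arrays of 1 age or time are matched by the age and time terms of the fits. Depth is not defined for arrays, and with 3 arrays a time a change of a dim gene such as Omd can be missed.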
